A study of Meleagris gallopavo with 18 samples.

Results

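The 200 loci described here had their highest median expression in the ductus deferens. They are 200 of the 56037 loci of the merged transcript assembly and were chosen by their measured levels. Each count was scaled to counts per 1000000 counts of its library (CPM), and the median over the 6 libraries of each tissue was taken. The score of a locus is the log2 ratio of the ductus deferens median plus 1 CPM over the higher of the epididymis and testis medians plus 1 CPM. The 200 highest scores were kept after the loci of KRT19, SLC15A1 and SLC34A2 had been set aside. Because the score compares the ductus deferens with both other tissues, differences of these loci between the ductus deferens and the epididymis or testis are given as a description without a test. The score did not set the epididymis against the testis, and that comparison was tested for each locus, but both medians entered the score through the higher of them.

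The libraries came from the ductus deferens, the epididymis and the testis of 6 male turkeys, each bird giving a single library of every tissue (18 libraries). The birds carried the numbers 2, 11, 12, 14, 15 and 16, and values are given in this order of birds below. Each of them was 38 weeks old and had been photostimulated at 26 weeks, with 14 h of light and 10 h of darkness. All groups share this age and light schedule.

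In birds the ductus deferens is a coiled tube that carries spermatozoa away from the epididymis and stores them before ejaculation. Its epithelium is folded and lies inside connective tissue and smooth muscle, and with no accessory glands of the mammalian kind, the fluid around the spermatozoa comes from the testis and the ducts. The epididymis upstream contains efferent ductules with ciliated cells, and the testis contains the germ cells. Each library is a whole tissue, so fewer cells of a type and less RNA per cell cannot be told apart. None of the 200 loci is paired with a gene symbol in the tables used here, and they are given by their assembly identifiers (MSTRG followed by a number) with no gene name.

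Library totals were 64143451 to 100241426 counts in the ductus deferens, 64456026 to 118625345 in the epididymis and 81438457 to 100159106 in the testis. The limit set by 3 counts was 0.0253 to 0.0468 CPM, depending on the library, and it covers counting error only. The epididymis of bird 12 had counts on 17596 loci, whereas the other 5 epididymides had counts on 27459 to 34711. Over the 159 of the 200 loci with a median of at least 1 CPM in the other 5 epididymides, its level was 0.720 of that median, and over all such loci of the table it was 0.293.

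The 200 loci took 5.98 to 9.01% of the counts of a ductus deferens library, 1.21 to 3.26% of an epididymis library and 0.145 to 0.239% of a testis library. The mean share was 7.06% ± 1.14 for the ductus deferens, 1.88% ± 0.769 for the epididymis and 0.185% ± 0.0332 for the testis (SD, n = 6 each). The 3 tissues did not overlap in this share. The high share of the ductus deferens reflects the way the loci were chosen. The score did not set the epididymis against the testis, though both medians entered it, and their difference in share was not tested. The highest epididymis share, 3.26%, was that of bird 11, and without it the epididymis mean was 1.61% ± 0.413 (SD, n = 5).

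In these loci the epididymis of bird 11 was often the highest of its tissue. It was the highest of the 6 epididymides in 133 of the 200 loci (66.5%), and over all loci with a count in an epididymis it was the highest in 23.4%. Over 156 loci with a median of at least 1 CPM in the other 5 epididymides, its level was 2.76 times their median and it was the higher in 146, while over all such loci of the table the ratio was 1.10. Within bird 11 the median fold of the ductus deferens over the epididymis was 1.98 over 182 loci with counts in both ducts, against 3.68 to 5.87 in the other birds. The summed level of 9 genes of motile cilia was 597 CPM in this epididymis and 575 to 978 CPM over the 6 epididymides. In the epididymis of bird 12 the ratio to the other 5 was 0.720 over 159 of the 200 loci and 0.293 over all such loci. It too was thus higher over these loci than over the table as a whole. What set these libraries apart was not tested.

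**Figure D1:**
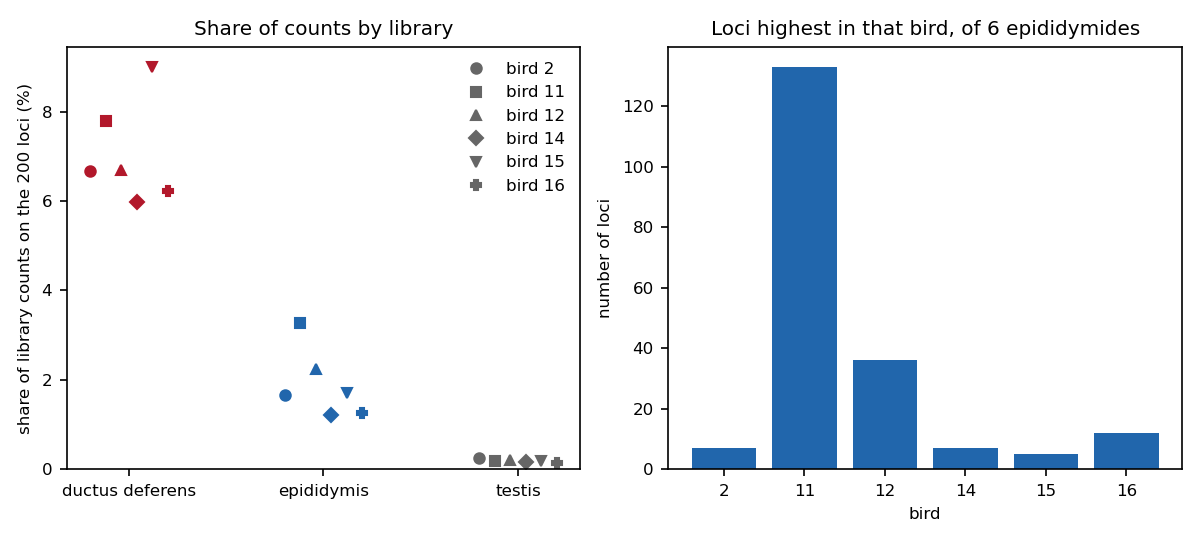
The left panel shows the share of library counts, in percent, on the 200 loci for each bird in the ductus deferens, the epididymis and the testis, and the right panel the number of loci for which each bird's epididymis was the highest of the 6. Ductus deferens shares lie between 5.98 and 9.01%, epididymis shares between 1.21 and 3.26% with bird 11 at the top, and bird 11 leads in 133 loci.

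Levels spread over more than 3 orders of magnitude. The median CPM over the 200 loci was 45.1 for the ductus deferens, 7.91 for the epididymis and 1.03 for the testis. In the ductus deferens, 14 loci had a median above 1000 CPM, 66 above 100 CPM and 33 under 10 CPM. The testis median was above the epididymis median in 19 loci. In the other 181 the epididymis median was the higher or equal to it, and these include loci in which both medians were 0. The median fold was 4.77 for the ductus deferens over the epididymis and 26.2 for the ductus deferens over the testis. Loci with a median of 0 in the other tissue have no fold and are left out, so both values cover different sets of loci and not all 200.

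The score ran from 8.40 at the first rank to 1.619 at rank 200, with a median of 2.03, and its median over all loci with a count was -0.16. Just inside the limit, MSTRG.13052, MSTRG.25704, MSTRG.15642, MSTRG.34390 and MSTRG.21107 had medians of 36.3, 18.2, 6.62, 11.8 and 15.5 CPM in the ductus deferens, with scores of 1.62 to 1.63. Just outside it, MSTRG.9442, MSTRG.12872, MSTRG.10087, MSTRG.39643 and MSTRG.19704 had medians of 8.22, 37.8, 557, 10.4 and 2.60 CPM, with scores of 1.59 to 1.616. The scores on both sides of the limit hardly differ, although the levels of these loci do.

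In single libraries the loci were of several kinds. All 6 ductus deferens libraries lay above all 12 other libraries in 73 loci (36.5%), and this held for 291 of the 55665 loci with a count (0.523%). Since the score used these contrasts, nothing is read from the difference between both shares. With CPM scaled by TMM factors the number was 60. Without the epididymis of bird 11 it was 115, and without that of bird 12 it was 85. Leaving out a library can only raise this number, and none of these alternatives was counted over all loci. In 129 loci the ductus deferens was above both other tissues of the same bird in all 6 birds. The score used these contrasts too, and this number was not counted over all loci. At the other end, 32 loci had a library of another tissue above the ductus deferens median, and that library was most often the epididymis of bird 12 (17 loci) or of bird 11 (7 loci).

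**Figure D2:**
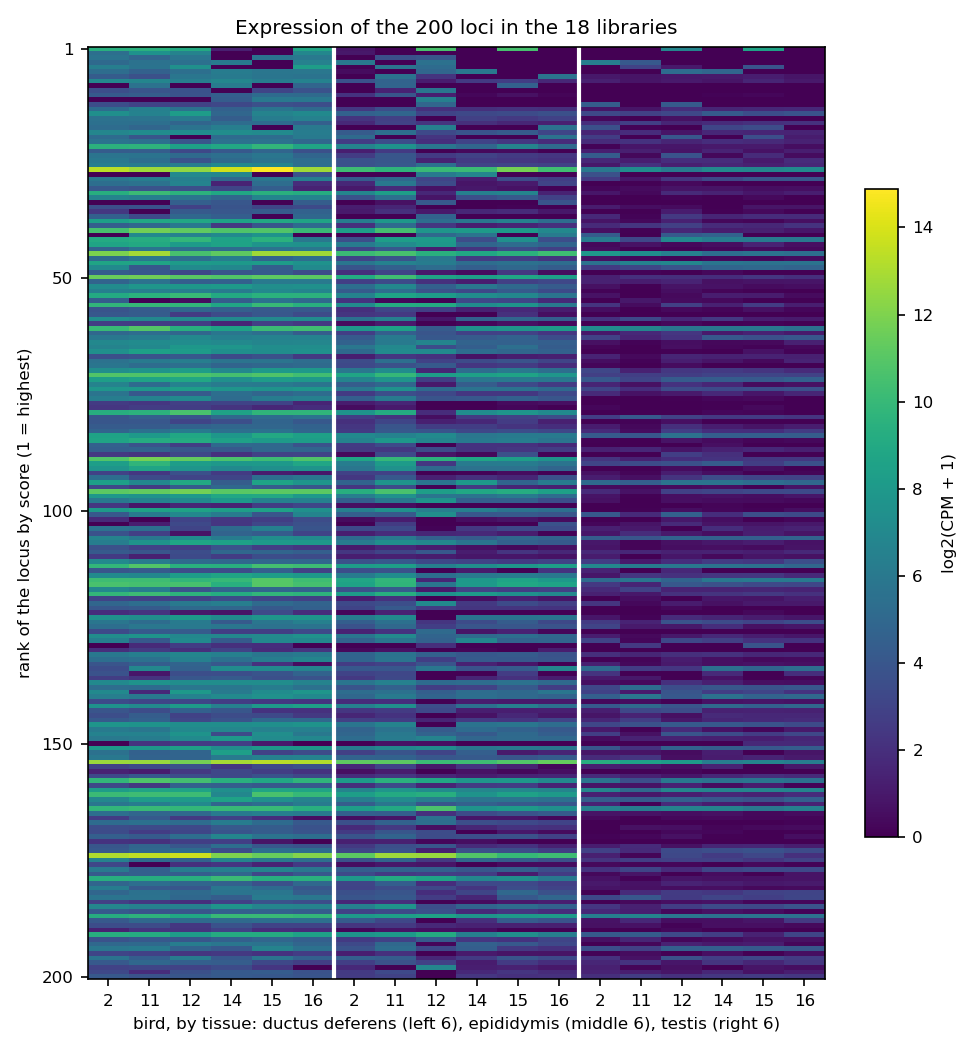
Each row is 1 of the 200 loci in order of score and each column a library, with log2(CPM + 1) as colour and the tissues in blocks of 6 birds. Most rows are brighter in the ductus deferens block than in the epididymis block and darkest in the testis block, and dark cells inside the first rows mark the loci without counts in single ductus deferens libraries.

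Among loci without overlap, the distance between the tissues was modest in most. The lowest ductus deferens library was 1.41 times the highest other library in the median of the 73 loci, with a range of 1.01 to 3.30, and it was at least 2 times higher in 9. The coefficient of variation between the 6 ductus deferens libraries was 30.5% in the median of these loci and 41.9% over all 200, where it ranged from 11.3 to 174%. The loci in the following sentences were chosen after their values were seen, apart from MSTRG.37036, which is among the 10 highest scores.

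MSTRG.37036 had 123, 108, 81.9, 114, 75.2 and 96.8 CPM in the ductus deferens, 12.2, 25.9, 1.27, 4.78, 5.49 and 2.19 CPM in the epididymis, and 1.52, 0.823, 1.07, 0.759, 1.87 and 0.986 CPM in the testis. The ductus deferens libraries of all birds were above every other library, the 2 highest epididymides were those of birds 11 and 2, and the epididymis of bird 12 reached into the testis range. Its neighbour in number, MSTRG.37038, had the widest gap of all, with 6.36 to 13.8 CPM in the ductus deferens, at most 1.93 CPM in the epididymis and at most 1.18 CPM in the testis.

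MSTRG.44729 had 47.4, 51.5, 65.5, 19.7, 76.3 and 90.7 CPM in the ductus deferens, against 3.71, 6.13, 0, 5.96, 4.65 and 6.28 CPM in the epididymis and at most 0.614 CPM in the testis. Bird 14 was the lowest ductus deferens and still lay above the 12 other libraries, and the epididymis of bird 12 had no count. MSTRG.29546 had 44.7, 43.0, 28.4, 36.9, 36.4 and 21.3 CPM in the ductus deferens, 1.52 to 6.69 CPM in the epididymis and 1.86 to 5.77 CPM in the testis. In this locus the epididymis and the testis overlapped over nearly their whole range.

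MSTRG.33027 had 171, 97.6, 297, 29.6, 98.2 and 130 CPM in the ductus deferens, 6.95 to 27.6 CPM in the epididymis and 6.03 to 17.8 CPM in the testis. Birds 12 and 14 were 10 times apart in the ductus deferens, and bird 14 exceeded the highest epididymis, that of bird 11, by little. MSTRG.32456 had 23.7 to 88.1 CPM in the ductus deferens, with bird 11 the highest, 2.95 to 10.5 CPM in the epididymis and 0.778 to 2.66 CPM in the testis. MSTRG.2538 had 115, 147, 150, 158, 140 and 75.2 CPM in the ductus deferens, 7.63 to 41.6 CPM in the epididymis and 0.808 to 2.76 CPM in the testis. The highest epididymis in both of these loci was that of bird 11.

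MSTRG.15244 had 747, 798, 347, 491, 875 and 410 CPM in the ductus deferens, 98.5, 188, 55.2, 29.4, 102 and 34.1 CPM in the epididymis, and at most 1.08 CPM in the testis. The 3 tissues formed separate ranges, with birds 15, 11 and 2 the highest in both ducts. MSTRG.15245 and MSTRG.15248, which follow it in number, were also among the 200 loci at lower levels, with medians of 15.3 and 12.7 CPM in the ductus deferens, 2.66 and 1.78 CPM in the epididymis and 0 CPM in the testis.

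**Figure D3:**
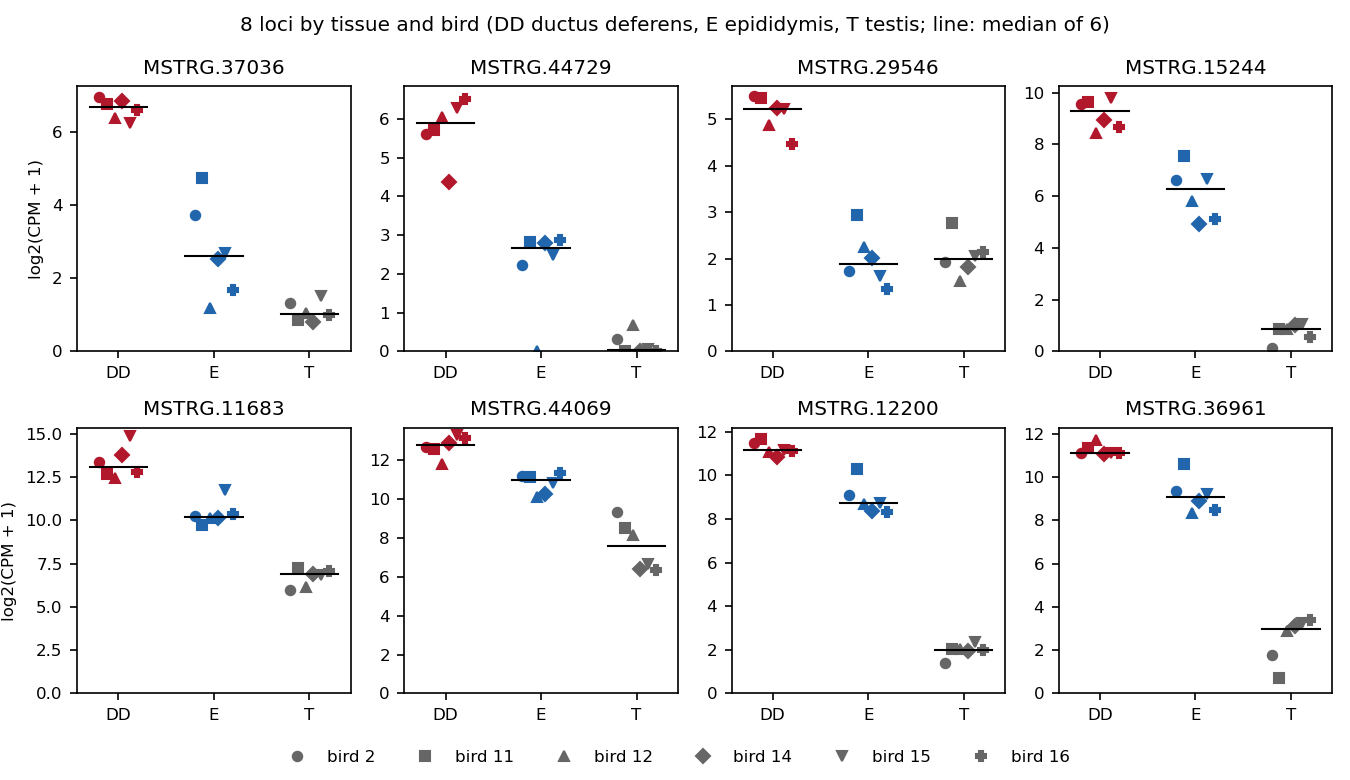
Log2(CPM + 1) of 8 loci in the ductus deferens (DD), the epididymis (E) and the testis (T), with a symbol for each bird and a line at the median of 6. In every panel the 6 ductus deferens libraries lie above the other 12, the epididymis of bird 11 is often the highest of its tissue, and the testis differs from the epididymis least in MSTRG.29546.

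The 10 loci with the highest ductus deferens medians carried 57.1 to 68.0% of the counts of the 200 loci in a ductus deferens library, 50.2 to 63.4% in an epididymis library and 16.3 to 40.4% in a testis library. MSTRG.11683 was the most abundant, with 10432, 6568, 5491, 14112, 30164 and 7011 CPM in the ductus deferens. It had 1224, 829, 1098, 1132, 3500 and 1296 CPM in the epididymis and 61.0 to 148 CPM in the testis. Bird 15 was the highest in both ducts, and the fold between the ducts within a bird was 5.0 to 12.5.

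MSTRG.44069 followed with 6512, 6050, 3560, 7519, 10156 and 9027 CPM in the ductus deferens, 1112 to 2638 CPM in the epididymis and 79.7 to 654 CPM in the testis. Its testis libraries fell into a higher set, birds 2, 11 and 12 with 285 to 654 CPM, and a lower set, birds 14, 15 and 16 with 79.7 to 100.4 CPM. MSTRG.411 had 3991, 7281, 1494, 2313, 6916 and 6808 CPM in the ductus deferens, 473 to 1475 CPM in the epididymis and 39.8 to 228 CPM in the testis. Its lowest ductus deferens library, that of bird 12, lay only just above the highest epididymis, that of bird 11.

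MSTRG.24560 behaved differently across birds. It had 8863, 11143, 13964, 4156, 2758 and 4425 CPM in the ductus deferens and 2278, 6660, 6222, 1814, 1012 and 1207 CPM in the epididymis, but at most 8.22 CPM in the testis. The ductus deferens of birds 14, 15 and 16 lay below the epididymis of birds 11 and 12, so the tissues overlapped, yet within every bird the ductus deferens was 1.67 to 3.89 times the epididymis.

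The remaining 6 of the 10 were above 100 CPM in every epididymis, apart from MSTRG.19277 in bird 12, and at most 16.4 CPM in any testis. MSTRG.12200 had 1848 to 3218 CPM in the ductus deferens, 319 to 1253 CPM in the epididymis and 1.62 to 4.16 CPM in the testis. MSTRG.36961 had 2227, 2571, 3351, 2138, 2201 and 2221 CPM in the ductus deferens, 317 to 1536 CPM in the epididymis and 0.663 to 9.35 CPM in the testis. Its ductus deferens libraries were close to each other apart from that of bird 12.

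MSTRG.52307 had 1171 to 3440 CPM in the ductus deferens, 202 to 980 CPM in the epididymis and 1.53 to 4.37 CPM in the testis, and MSTRG.29129 had 1254 to 1819 CPM, 228 to 955 CPM and 5.49 to 7.61 CPM in the same order of tissues. Neither locus overlapped between the tissues, and bird 11 was again the highest epididymis in both. MSTRG.38384 had 1098 to 3394 CPM in the ductus deferens and 123 to 1400 CPM in the epididymis, where only bird 11, with 1400 CPM, exceeded a ductus deferens library. MSTRG.19277 had 670 to 1979 CPM in the ductus deferens and 55.9 to 839 CPM in the epididymis, with bird 12 the lowest epididymis and bird 11 the highest, and the overlap came from the ductus deferens of bird 14. Its within-bird fold accordingly ran from 1.69 in bird 11 to 26.8 in bird 12.

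The highest scores belonged mostly to loci of another kind. A locus is called intermittent here where at least 1 library of the ductus deferens or epididymis had at most 3 counts while another of the same tissue reached 10 CPM. There were 28 such loci, 9 of them among the 10 highest scores, 13 among the first 20 and 15 at ranks 21 to 200. Of the 185 loci that reached 10 CPM in a duct library they made up 15.1%, against 9.48% of all loci of the table that did. The definition was made after the values were seen.

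The locus with the highest score, MSTRG.50715, had 669, 697, 522, 1.45, 0 and 427 CPM in the ductus deferens, 0.818, 0, 1570, 0, 1481 and 0 CPM in the epididymis, and 0, 0, 115, 0, 401 and 0 CPM in the testis. Its epididymis median was thus 0.409 CPM although birds 12 and 15 exceeded every ductus deferens. The locus of the preceding number, MSTRG.50714, had 17.9, 21.7, 19.99, 984, 630 and 12.0 CPM in the ductus deferens, 1921, 1251, 65.5, 1880, 49.04 and 1386 CPM in the epididymis, and 441, 684, 11.0, 473, 16.4 and 481 CPM in the testis. The libraries with a high level of one locus were those with a low level of the other in all 3 tissues. Their sum had a median of 658 CPM in the ductus deferens, 1583 CPM in the epididymis and 457 CPM in the testis, so the ductus deferens was not the highest tissue of the pair.

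MSTRG.22323, at the second rank, had 41.8, 188, 98.4, 0, 0 and 119 CPM in the ductus deferens and no count in any other library but the epididymis of bird 2 (0.961 CPM). MSTRG.22322 had 87.2, 0, 0.0379, 182, 82.3 and 0 CPM in the ductus deferens, 85.2 to 702 CPM in the epididymis and 117 to 417 CPM in the testis. Their sum had medians of 124 CPM in the ductus deferens, 112 CPM in the epididymis and 217 CPM in the testis. The ductus deferens of bird 2 was the only library with counts of both loci at a comparable level.

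MSTRG.28497 had 80.0, 49.3, 175, 0, 0 and 317 CPM in the ductus deferens, with 52.3 and 35.9 CPM in the epididymis of birds 11 and 12 and 0 in that of the other birds. Its neighbour MSTRG.28496 had at most 2.30 CPM in the ductus deferens, 0 to 206 CPM in the epididymis and 0.792 to 26.5 CPM in the testis. The sum of both had medians of 64.8 CPM in the ductus deferens, 70.2 CPM in the epididymis and 12.7 CPM in the testis. This pair alternated less strictly than the first. Both loci were at 0 or nearly so in the ductus deferens of birds 14 and 15. In the epididymis of bird 11 both were present, MSTRG.28497 with 52.3 CPM and MSTRG.28496 with 136 CPM.

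**Figure D4:**
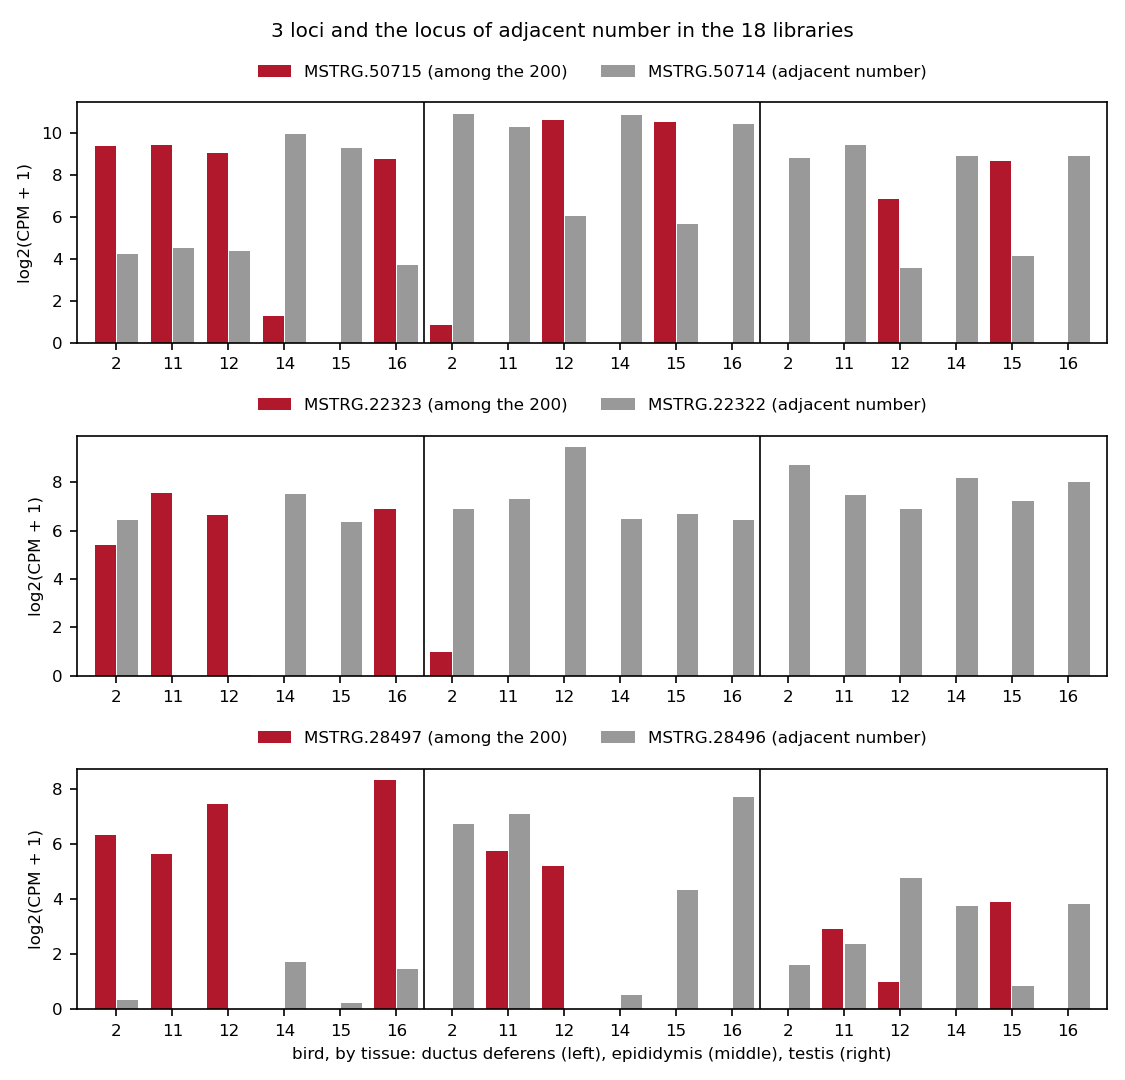
Bars show log2(CPM + 1) in the 18 libraries for 3 of the 200 loci and for the locus of adjacent number, with the ductus deferens on the left, the epididymis in the middle and the testis on the right. MSTRG.50715 and MSTRG.50714 alternate between libraries in all 3 tissues, and MSTRG.22323 has counts in 4 ductus deferens libraries whereas MSTRG.22322 has counts in all epididymides and testes.

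The other intermittent loci of the first 10 ranks were MSTRG.20637, MSTRG.28700, MSTRG.38382, MSTRG.50773, MSTRG.38446 and MSTRG.48529. Their ductus deferens medians were 50.5, 46.0, 49.3, 52.3, 13.9 and 11.6 CPM, and their epididymis medians were at most 1.90 CPM. In MSTRG.38446 the ductus deferens of birds 2, 12 and 15 had no count, so the median lay between 3 libraries at 0 and 3 at 27.8 to 72.7 CPM. In MSTRG.48529 the single highest library was the epididymis of bird 12, with 56.4 CPM against at most 14.3 CPM in the ductus deferens.

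How far the score depends on the counts of adjacent loci was measured for all 200 loci by adding the locus of the preceding or following number, and taking the lower of both new scores. The median score of the 28 intermittent loci was 2.83 alone and 0.33 with the neighbour, and it was at or below 0 in 10 of them. The median of the other 172 loci was 2.00 alone and 1.73 with the neighbour, with 23 at or below 0. Among loci described above that were not intermittent, the lower score was -0.92 in MSTRG.44729 and -0.35 in MSTRG.29546. It was 0.02 in MSTRG.15244, 0.14 in MSTRG.2538 and 0.24 in MSTRG.32456, but 4.07 in MSTRG.37036, 3.31 in MSTRG.33027 and 2.89 in MSTRG.11683. Adjacent numbers do not show that loci overlap, and a strongly expressed neighbour of no relation lowers the score too. In 6 of the 200 loci the counts were equal, within 1%, to those of a neighbour in at least 3 libraries. MSTRG.28700, MSTRG.50773 and MSTRG.48529, all among the 10 highest scores, belong to these, with 8, 8 and 6 such libraries. Counts of such loci are uncertain, because reads may have been divided between neighbours or counted in both.

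Between the epididymis and the testis, 103 of the 177 tested loci were higher in the epididymis and none was higher in the testis. A locus with a high testis level could enter the 200 only where the ductus deferens exceeded it, so the choice of the loci limits how many can be higher in the testis. The shares over all tested loci are therefore given as background, and nothing is read from the difference. The test was the quasi-likelihood test of edgeR on the gene counts of the 6 libraries of each tissue, with the Benjamini-Hochberg adjustment over all 28489 loci that passed its filter on low counts. A locus was called where its adjusted p was under 0.01 and its log2 fold change was larger than 1 in size. The filter used the epididymis and testis libraries only. A locus with almost no testis counts passed it through its epididymis level alone, so its direction was set in advance. Of the 200 loci, 177 passed the filter and 103 of these (58.2%) were called higher in the epididymis, with 12.9% of all tested loci called in that direction. None was called higher in the testis, with 23.0% of all tested loci called there. With the bird as a block, which pairs the tissues of an animal, 74 of the 177 loci (41.8%) were called higher in the epididymis, 73 of them among the 103, and 7.95% of all tested loci. DESeq2 called 105 of the 177 higher in the epididymis and none higher in the testis. Over all 28489 tested loci it called 3745 and 9629 in these directions, and nothing is read from the difference. Of the 177 loci, 130 had an unadjusted p under 0.05 in edgeR, a number that was not counted over all tested loci.

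The median log2 fold change of the 177 loci was 3.17 for the epididymis over the testis, and over all tested loci it was -0.30. The median over all loci was -0.56 with library size alone, -0.53 with the upper quartile and -0.67 with the size factors of DESeq2, and the median of the 177 loci was 2.80, 2.93 and 2.72 with the same settings. The fold change was positive in 174 of the 177 loci and negative in MSTRG.15913, MSTRG.13946 and MSTRG.21107. The epididymis was above the testis in all 6 birds in 96 loci, and no locus had the testis above the epididymis in all 6. These numbers of directions were not counted over all loci. The choice of the loci limits how high the testis can be, so nothing is read from them. Of the 28 intermittent loci, 15 passed the filter and 2 were called.

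The called loci had log2 fold changes of 1.75 to 11.87. Some of the largest rest on testis levels at or below the limit of 3 counts there (0.03 to 0.0368 CPM). The testis mean was 0.0120 CPM in MSTRG.7768 and 0.0326 CPM in MSTRG.48398, so the size of such folds is uncertain. The 10 largest changes with the epididymis above the testis in every bird were led by MSTRG.39281. It had 211, 564, 2.70, 147, 213 and 134 CPM in the epididymis and at most 0.21 CPM in the testis, where birds 2, 11 and 12 had no count. Its log2 fold change was 11.87 with a standard error of 1.43 (edgeR adjusted p = 2.31e-05), and its ductus deferens libraries had 378 to 1531 CPM. The epididymis of bird 12 was far below the other 5, but above every testis.

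MSTRG.24560, described above among the most abundant loci, had the second largest change, with 1012 to 6660 CPM in the epididymis and 0.147 to 8.22 CPM in the testis (log2 fold change 10.08, standard error 1.08, edgeR adjusted p = 9.03e-06). MSTRG.22533 had 249, 544, 389, 111, 155 and 62.1 CPM in the epididymis and 0.0982 to 0.819 CPM in the testis. Its log2 fold change was 9.21 with a standard error of 0.78 (edgeR adjusted p = 1.41e-06), and the ranges were wide apart. In the ductus deferens it had 625 to 693 CPM in 5 birds and 1122 CPM in bird 14.

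MSTRG.4040 had 86.1, 185, 82.6, 87.8, 52.4 and 41.9 CPM in the epididymis and 0.0365 to 0.496 CPM in the testis, with a log2 fold change of 9.0 and a standard error of 0.76 (edgeR adjusted p = 1.43e-06). MSTRG.23584 had 52.2 to 241 CPM in the epididymis and 0 to 0.733 CPM in the testis, with a log2 fold change of 9.21, and MSTRG.38384 had 123 to 1400 CPM in the epididymis and 0.0614 to 2.07 CPM in the testis, with a log2 fold change of 9.10. In all 3 loci the highest epididymis was that of bird 11. MSTRG.31899, MSTRG.28483 and MSTRG.48398 had epididymis levels of 23.9 to 144, 28.1 to 181 and 6.97 to 41.1 CPM, with log2 fold changes of 9.34, 9.0 and 9.50, and at most 0.662 CPM in any testis.

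MSTRG.7768 was the least abundant of the 10, with 1.73, 3.50, 34.1, 0.827, 1.72 and 0.209 CPM in the epididymis and at most 0.0399 CPM in the testis. The epididymis of bird 12 was higher than all its ductus deferens libraries, which had 5.40 to 18.1 CPM. Its log2 fold change was 9.78 with a standard error of 1.71 (edgeR adjusted p = 0.000334), and it was 7.34 without bird 12 and 7.09 without the epididymis of bird 12.

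All 10 loci stayed called when any bird, or the epididymis of bird 11 or 12, was left out, but in 8 of them a fold moved by over 1.5 times. Without bird 11 the log2 fold change was 10.92 in MSTRG.39281, 8.02 in MSTRG.38384, 8.12 in MSTRG.28483 and 8.59 in MSTRG.23584. Without bird 12 it was 8.42 in MSTRG.31899 and 8.49 in MSTRG.48398, and without the epididymis of bird 12 it was 9.49 in MSTRG.24560. Values above those with all birds came without bird 14 in MSTRG.39281 (12.82) and MSTRG.7768 (10.81), without bird 15 in MSTRG.31899 (11.40) and MSTRG.28483 (9.71), and without bird 16 in MSTRG.48398 (10.25).

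**Figure D5:**
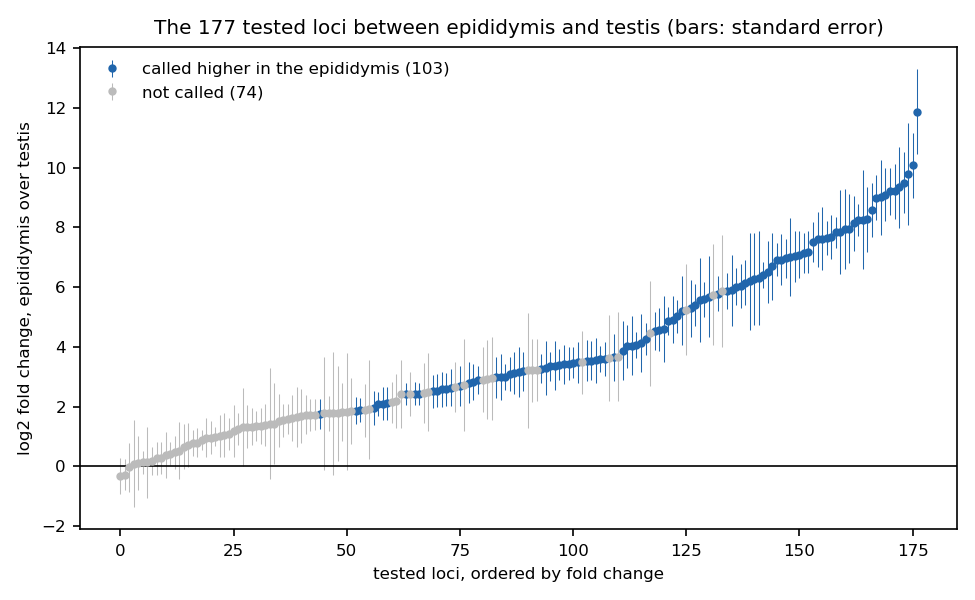
Points are the 177 tested loci in order of the log2 fold change of the epididymis over the testis, with bars for the standard error. The 103 called loci are in blue and lie between 1.75 and 11.87, and 3 loci lie below 0.

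The 19 loci with the testis as next highest tissue included MSTRG.28497 and MSTRG.29546, described above, and MSTRG.27370. MSTRG.27370 was the most abundant of the 19, with medians of 294 CPM in the ductus deferens, 50.4 CPM in the epididymis and 52.3 CPM in the testis. MSTRG.13946 had medians of 50.9 CPM in the ductus deferens, 10.1 CPM in the epididymis and 13.7 CPM in the testis. These loci were chosen after their values were seen. Its log2 fold change of the epididymis over the testis was -0.28 with a standard error of 0.52 (edgeR adjusted p = 0.671).

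The Ensembl annotation contributed counts to 86 of them (43.0%). It did so in 66.7% of the 12788 assembled loci with a ductus deferens median at least as high as the lowest of the 200 (2.43 CPM), a set that contains these loci and is not matched to their level. In 24 loci more than 50% of the ductus deferens counts lay on Ensembl transcripts, and in 114 loci all counts lay on assembled transcripts. These shares are given as a description, and no test was made of them.

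The transcripts of 194 loci could be assigned, with 89 loci of 1 transcript and 105 of 2 or more. In these 105 loci the leading transcript of the ductus deferens held 79.7% of the counts in the median. In the 78 of them with at least 5 CPM in the epididymis, its share in the ductus deferens minus that in the epididymis was 0.063 percentage points in the median and beyond 20 points in either direction in 14. MSTRG.38384 was one of these, where the leading transcript held 52.8% of the counts in the ductus deferens and 96.0% in the epididymis. In MSTRG.37728 the leading transcript of the ductus deferens held 26.1% there and 1.81% in the epididymis. Both loci were chosen after their values were seen.

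Some of the 200 loci had close numbers. How often other loci of the assembly lie as close was not counted, so nothing is read from the number of runs. The numbers follow the genome in 185 of 189 consecutive pairs of lncRNA loci with a known position on the same chromosome, and 45 of the 200 loci fell into 21 runs with steps of at most 5 in number, the longest with 3 loci. MSTRG.22530, MSTRG.22532 and MSTRG.22533 formed such a run. In the ductus deferens MSTRG.22532 and MSTRG.22533 were both highest in bird 14, with 241 and 1122 CPM, whereas MSTRG.22530 was lowest in bird 14, with 155 CPM. MSTRG.52304 and MSTRG.52307 were ordered alike over the birds, with 1768 and 3440 CPM in bird 11 as the highest and 478 and 1171 CPM in bird 15 as the lowest ductus deferens. These runs were described after their values were seen, and their members may share reads.

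For 3 of the 200 loci a lncRNA transcript is listed with its position in the turkey genome version to which the reads were mapped. MSTRG.4040 lies on chromosome 1 from 80051686 to 80090306, and its values in the epididymis and testis are given above. In the ductus deferens it had 279, 380, 383, 327, 372 and 179 CPM, and only the epididymis of bird 11, with 185 CPM, reached into this range. MSTRG.30884 lies on chromosome 3 from 23088683 to 23214652 and had 59.2, 78.9, 84.4, 31.0, 56.3 and 85.5 CPM in the ductus deferens, 1.20 to 33.4 CPM in the epididymis and 0.896 to 15.1 CPM in the testis. MSTRG.37728 lies on chromosome 5 from 8512721 to 8586648 and had 83.9, 15.9, 136, 17.3, 123 and 115 CPM in the ductus deferens, 25.4, 56.3, 23.5, 118, 25.2 and 27.7 CPM in the epididymis and 0.184 to 8.43 CPM in the testis. In MSTRG.37728 the ductus deferens of birds 11 and 14 lay below that of the other birds, and their epididymides were the highest of that tissue.

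The marker genes that could be checked were few. Of 261 genes in 18 lists of cell types and functions, 14 could be matched to a locus, none of them among the 200 loci, and 13 lists had no matched gene. The lists of endothelium, immune cells, neurons, striated muscle and patterning factors were among these 13, and those of smooth muscle and stratified epithelium had a single matched gene each, so they could not be used to describe which cells the 200 loci come from. KRT19, a keratin of epithelial cells, and SLC34A2, a phosphate transporter, matched too but had been set aside. Their medians were 532 and 81.5 CPM in the ductus deferens, 19.3 and 13.7 CPM in the epididymis and 16.0 and 11.8 CPM in the testis, the direction of the 200 loci. The symbols came from supplementary tables that pair lncRNAs with genes the study had already called between these tissues in the same libraries. Calls of the matched genes were thus partly set in advance. Of the 12 matched genes that the rule had not set aside, edgeR called 10 lower in the ductus deferens than in the epididymis and none higher. It called 4.22% and 1.12% of all tested loci in these directions, and nothing is read from the difference. DESeq2 called 11 lower and 1 higher, and CSRP1 alone had an unadjusted p under 0.05 for a higher level in edgeR.

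The 10 were the 9 genes of motile cilia, all from 1 list, and AQP9, a water and glycerol channel. Genes that scored as high as the chosen loci could not be among the 12, which partly sets the direction of the 10 calls. CSRP1, with a lower score of 1.38, was among the 12, although its median was highest in the ductus deferens. With the bird as a block 8 were called, without AQP9 (adjusted p = 0.0137 in edgeR) and the cilia gene TTC26 (adjusted p = 0.0111 in edgeR). The summed level of the 9 genes was 28.3 to 44.5 CPM in the ductus deferens, 575 to 978 CPM in the epididymis and 576 to 1675 CPM in the testis. DNAH5, a heavy chain of the outer dynein arm, averaged 0.0876 ± 0.145 CPM in the ductus deferens and 149.4 ± 75.4 CPM in the epididymis (SD, n = 6 each), with a log2 fold change of -10.61 and a standard error of 1.27 (edgeR adjusted p = 0.000112). ARMC4, which docks the outer arm, LRRC6, an assembly factor of dynein arms, and RSPH9, a radial spoke protein, fell by 8.14, 7.89 and 4.34 on the log2 scale. AQP9 averaged 9.33 ± 1.45 CPM in the ductus deferens and 29.3 ± 9.08 CPM in the epididymis (SD, n = 6 each), with a log2 fold change of -1.48, and it was higher in the ductus deferens than in the testis, with 0.897 ± 0.521 CPM there and a log2 fold change of 3.76.

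The other matched genes did not pass the threshold between the ducts. CSRP1, a LIM protein of smooth muscle, averaged 3257 ± 904 CPM in the ductus deferens and 1201 ± 257 CPM in the epididymis (SD, n = 6 each), with a log2 fold change of 1.46 and an edgeR adjusted p of 0.0109. HORMAD1, a protein of meiotic chromosomes, averaged 3.69 ± 1.60 CPM in the ductus deferens and 8.38 ± 2.66 CPM in the epididymis, with 421 ± 76.9 CPM in the testis (SD, n = 6 each). Its log2 fold change was -1.14 for the ductus deferens over the epididymis (edgeR adjusted p = 0.0601) and -6.59 for the ductus deferens over the testis (edgeR adjusted p = 1.88e-08). Over the testis, 2 of the 12 genes were called higher and 9 lower in the ductus deferens, where edgeR called 14.9% and 30.4% of all tested loci. The same limit of the matched genes holds here.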

How the data were processed

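RNA-seq data of the ductus deferens, epididymis and testis of 6 turkeys were used, with 18 libraries. Per the labels and methods, poly(A) RNA was prepared with a stranded kit, and reads were cut by the authors to 90 nt (Trimmomatic 0.38), aligned by STAR 2.4 to turkey genome version 2.01 with annotation 2.01.91 and the transcripts merged by StringTie 1.3.3. They deposited raw counts per gene and per transcript without normalization. The counting tool and its strand setting are not given in the sources used here, so counts of overlapping or neighbouring loci are uncertain. A read in a stretch shared by neighbouring loci may count for either.

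CPM used the library total, and medians, scores and ranks were computed with Python 3.11.15, numpy 2.4.6 and pandas 2.3.3 (figures with matplotlib 3.10.9). Tests used R 4.3.3 and edgeR 4.0.16 (TMM, its filter on low counts, robust quasi-likelihood fit, Benjamini-Hochberg) on the 12 libraries of the tissues compared, with DESeq2 1.42.0 as an alternative. The standard error is the absolute log2 fold change over the square root of F. The edgeR test of the epididymis over the testis was tried on simulated counts with changed loci of at least 5 CPM on average. It called 56 of 100 loci with a log2 change of 3 in size and 96 of 100 with a change of 6. A locus that was not called can therefore still differ between the tissues. The study classified genes with other tools at the same thresholds.

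The 200 loci and the gene lists were chosen with earlier results of these data known. The rule named the 10 highest scores, the 10 highest ductus deferens medians, ranks 196 to 200 and 201 to 205, the 10 largest called changes of the epididymis over the testis with 1 direction in all birds, and up to 4 called genes of each list. Other loci are marked as chosen after their values were seen. Ensembl transcripts were assigned to a locus where their counts equalled, in all 18 libraries, the gene count minus its assembled transcripts, which matched 64 of 65 resolved pairs of the supplementary tables. Symbols came from those tables, which pair 83 loci with a symbol and cover genes the study had called between the tissues.

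Libraries with the same bird number come from the same animal, and this pairs the tissues. Correlations of same-bird deviations over 30452 loci were -0.0769, 0.0728, -0.0374, 0.0791, -0.00113 and 0.0122 for the epididymis and testis. Means with other birds were -0.0141 to 0.0142. For the ductus deferens and epididymis the same-bird values were 0.182, -0.0543, 0.0486, -0.00476, 0.0988 and 0.108, and the means with other birds -0.0404 to 0.0122. For the ductus deferens and testis the same-bird values were -0.0614 to 0.126. Alternatives were other scalings, no filter, all 3 tissues, a block for the bird, leaving out each bird, thresholds and, for the score, means and pseudocounts of 0.1 and 5 CPM.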

Additional observations from a re-analysis of the deposited data

Results flagged for a closer look

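Examined were the loci that the rule named for the highest scores, highest ductus deferens medians or largest called changes, and those with a listed position. Among these 30 loci (90 groups of 6 libraries), 19 groups had a library apart. Its distance to the nearest other exceeded Dixon's critical share of the whole range. Other loci described by library were not examined, and the numbers below cover the 30 loci only. Among those left out, the epididymis of bird 11 was the highest in MSTRG.32456 (10.5 CPM, others 2.95 to 4.36). It was also the highest in MSTRG.2538 (41.6 CPM, others 7.63 to 18.1). Groups without a library above 100 counts are among the 90 but could not be flagged. The critical share holds for normally distributed values, CPM were not transformed, and the loci were chosen by their values. The 19 are therefore not set against a number expected by chance.

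In the epididymis the library of bird 11 was the one apart, and the highest, in 8 loci: MSTRG.12200 (1253 CPM, others 319 to 548), MSTRG.36961 (1536, others 317 to 652), MSTRG.38384 (1400, others 123 to 308), MSTRG.29129 (955, others 228 to 437), MSTRG.39281 (564, others 2.70 to 213), MSTRG.23584 (241, others 52.2 to 107), MSTRG.28483 (181, others 28.1 to 56.0) and MSTRG.4040 (185, others 41.9 to 87.8). Bird 12 was apart in the epididymis in MSTRG.48529 (56.4 CPM, others 0 to 1.70) and MSTRG.7768 (34.1 CPM, others 0.209 to 3.50).

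In the remaining epididymis groups, the library apart was that of bird 15 in MSTRG.11683 (3500 CPM, others 829 to 1296), of bird 14 in MSTRG.37728 (118 CPM, others 23.5 to 56.3) and of bird 2 in MSTRG.22323 (0.961 CPM, others 0). In the ductus deferens it was that of bird 15 in MSTRG.11683 (30164 CPM, others 5491 to 14110), of bird 12 in MSTRG.36961 (3351 CPM, others 2138 to 2571), of bird 14 in MSTRG.22533 (1122 CPM, others 625 to 693) and of bird 11 in MSTRG.28483 (405 CPM, others 132 to 217). In the testis it was that of bird 15 in MSTRG.50715 (401 CPM, others 0 to 115) and of bird 2 in MSTRG.28700 (81.7 CPM, others 0 to 17.0).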

How the results depend on the processing

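The number of the 200 loci called between the epididymis and the testis was 103 and stayed within 74 and 122 under the alternatives, with 85 to 107 when each bird was left out. With the bird as a block it was 74, and for the matched list genes the block gave 8 in place of 10 calls between the ducts. The block changed no call of the 10 loci named for this comparison, and DESeq2 gave MSTRG.7768 no adjusted p. MSTRG.39338, whose epididymis had counts in bird 12 alone (26.1 CPM), reversed: its log2 fold change was 1.83 and not called, but it was -8.05 with the block, -10.43 without bird 12 and -10.60 without the epididymis of bird 12, where it was called, and 2.03 to 2.37 when another bird was left out. Without bird 12 the epididymis has no count of it, so these folds are no bounds. Loci without overlap numbered 73, 60 with TMM factors, and 77 to 126 when each bird was left out, the highest without bird 11, and 115 without the epididymis of bird 11, an alternative added after the data were seen. Without the intermittent loci, also added, it was 71. Leaving out libraries can only raise this number and leaving out loci can only lower it, and no alternative was counted over all loci. Of the 200 loci, 156 to 170 were kept when each bird was left out, 114 with a pseudocount of 0.1 CPM, and 105 kept a score of at least the lowest of the 200 when an adjacent locus was added, which was chosen after seeing the data. Depth limits the lowest loci: 23 of the 200 had at most 3 counts in 1 or more ductus deferens libraries and 8 in all testis libraries, and 23 could not be tested between the epididymis and the testis, 13 of them intermittent.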
